A study of Mus musculus with 12 samples.

Results

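*Foxm1* and 9 genes known as direct targets of its protein in the G2 and M phases of the cell cycle were examined in 12 bulk Rd76-9 tumors. The 10 genes (*Foxm1*, *Plk1*, *Ccnb1*, *Ccnb2*, *Aurka*, *Aurkb*, *Cdc25b*, *Cenpf*, *Birc5* and *Cdk1*) were chosen by name, as targets known from cell cycle work, with earlier results of these data known. They are 10 of the 38894 genes that were quantified, with or without reads. All 10 had enough reads to be tested. Rd76-9 is a mouse embryonal rhabdomyosarcoma (RMS) cell line first isolated from a carcinogen-induced tumor, and here it was grown under the skin of the flank of wild-type (WT) C57/Bl6J mice with an intact immune system. The tumors fell into 4 groups of 3. Tumors m1 to m3 had received vehicle, m4 to m6 VCR, m7 to m9 RCM1-NPFA, and m10 to m12 both agents (VCR + RCM1-NPFA). The number after the m is the one that the labels give. VCR is vincristine, a drug that binds tubulin and stops cells in mitosis, given at 0.25 mg/kg. RCM1 is a small molecule given as an inhibitor of FOXM1, packed into nanoparticles that carry folic acid (NPFA), at 8 µg. Vehicle-treated mice were given empty nanoparticles and saline. One label of the vehicle tumors also names the RCM1 nanoparticle, so these tumors were assigned by their titles and by the description of the design. All tumors were collected on day 16 after injection of the cells. RNA came from whole tumors, so tumor cells, blood cells, vessels and nearby muscle all contribute, and fewer cells of a type cannot be told apart from less RNA per cell.

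FOXM1 is a forkhead transcription factor that is made as cells pass from S phase to G2 and that switches on, together with MYBL2 and the MuvB complex, the genes that drive mitosis. At many of these genes the MuvB complex sits at a cell cycle homology region (CHR) close to the start of transcription, and NF-Y binds CCAAT boxes a short distance before it. The targets include the kinase CDK1 with its B-type cyclins and its activating phosphatase CDC25B, the polo-like kinase PLK1, the Aurora kinases, the kinetochore protein CENPF, and survivin, which *Birc5* encodes. High FOXM1 is a common feature of proliferating tumors, RMS among them.

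The promoters of 5 of the targets are given here to show where the letters of such elements lie in these genes. Those of *Plk1* and *Aurka* belong to the targets with the clearest difference between groups, that of *Ccnb2* held as many matches as any, and those of *Cenpf* and *Ccnb1* were the ones with a forkhead core. Each runs from 250 bases before to 50 bases after the gene's start in the RefSeq table for GRCm38.p6, on the gene's own strand, 5′ to 3′. Capitals mark every match, on either strand, to the CHR element (TTTGAA or TTCGAA), the CCAAT box (CCAAT) or the forkhead core (TAAACA). No match overlapped another. The *Plk1* sequence lies at chr7:122159185-122159484 on the plus strand, and the other sequences lie on the minus strand: *Aurka* at chr2:172370521-172370820, *Ccnb2* at chr9:70421505-70421804, *Cenpf* at chr1:189688037-189688336 and *Ccnb1* at chr13:100786437-100786736. For *Aurka* and *Cenpf* the start in this table lies inside the outer end of the gene.
Plk1: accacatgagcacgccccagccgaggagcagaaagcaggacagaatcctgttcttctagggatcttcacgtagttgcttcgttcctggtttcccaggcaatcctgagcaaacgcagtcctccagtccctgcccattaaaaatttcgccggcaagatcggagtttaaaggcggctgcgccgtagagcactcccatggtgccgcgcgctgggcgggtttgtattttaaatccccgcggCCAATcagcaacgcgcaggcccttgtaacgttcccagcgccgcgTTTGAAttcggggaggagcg
Aurka: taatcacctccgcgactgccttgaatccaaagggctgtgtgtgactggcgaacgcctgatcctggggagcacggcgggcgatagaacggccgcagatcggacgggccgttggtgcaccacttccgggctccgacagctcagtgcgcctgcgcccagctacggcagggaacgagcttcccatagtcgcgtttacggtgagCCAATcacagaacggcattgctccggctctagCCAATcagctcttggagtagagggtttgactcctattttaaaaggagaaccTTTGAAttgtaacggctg
Ccnb2: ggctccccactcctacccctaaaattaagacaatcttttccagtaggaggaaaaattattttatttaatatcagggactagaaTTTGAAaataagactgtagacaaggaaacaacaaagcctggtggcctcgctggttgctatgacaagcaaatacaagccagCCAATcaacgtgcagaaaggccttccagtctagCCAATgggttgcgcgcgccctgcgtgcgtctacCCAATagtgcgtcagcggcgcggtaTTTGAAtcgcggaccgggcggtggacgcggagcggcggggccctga
Cenpf: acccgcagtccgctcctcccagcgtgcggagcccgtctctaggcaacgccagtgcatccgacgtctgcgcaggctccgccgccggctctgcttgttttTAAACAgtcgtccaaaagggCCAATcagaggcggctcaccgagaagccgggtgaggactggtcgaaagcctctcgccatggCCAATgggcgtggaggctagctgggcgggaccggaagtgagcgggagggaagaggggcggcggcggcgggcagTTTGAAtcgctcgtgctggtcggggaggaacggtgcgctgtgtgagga
Ccnb1: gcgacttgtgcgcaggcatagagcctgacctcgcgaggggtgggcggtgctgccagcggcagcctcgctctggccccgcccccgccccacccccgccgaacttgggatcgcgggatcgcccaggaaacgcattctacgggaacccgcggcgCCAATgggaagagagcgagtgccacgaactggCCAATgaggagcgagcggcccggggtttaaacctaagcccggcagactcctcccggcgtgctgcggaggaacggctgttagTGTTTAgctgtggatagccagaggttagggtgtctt

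In *Plk1* and *Aurka* the CHR element began 31 and 33 bases after the start, with the first base of the gene counted as 1, and the nearest CCAAT box began 14 and 19 bases before it. In *Ccnb2* there were 3 CCAAT boxes ahead of a CHR element that began at base 5, and a further CHR element upstream of them. The *Ccnb1* window held a pair of CCAAT boxes and no match to the CHR letters searched. The table held the promoters of 8 of the 10 genes, not those of *Foxm1* and *Aurkb*. A CHR element was found in 6 of these 8, against 19.2% of all 32851 promoters of the same length, and a CCAAT box in 7 of 8, against 37.4%. Both were present together in 6 of 8, against 7.52% of all promoters. The forkhead core was found in 2 of 8, against 13.4%. *Birc5* had no match to any of the motifs. A match describes the letters in this window only and is not evidence of binding.

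Depth was even, from 29342195 to 32108055 estimated counts a tumor. The 10 genes had between 1277 (*Aurka*) and 6697 (*Cdk1*) reads in any tumor, so counting error was small beside the spread over all 12 tumors. Within a group this did not always hold, as for *Ccnb2* in vehicle tumors (SD 0.679 on a mean of 94.48 CPM). Each group was checked against marker lists. *Myf5* (48.9 to 69.9 CPM, counts scaled to library size) and *Cdh15* (125 to 202 CPM), genes of the muscle lineage, were present in every tumor, whereas *Myod1*, *Myog* and *Pax7* had 3 or fewer counts in each vehicle tumor. The whole list of 12 RMS and myogenic genes summed to 194.9 to 273.7 CPM in vehicle tumors and 406 to 699.8 CPM after VCR. It summed to 225 to 808 CPM after RCM1-NPFA and 274.0 to 440.2 CPM after the combination. Most of the spread of this sum came from 1 gene, *Des*, which ranged from 7.76 to 573 CPM over the tumors. Genes of the list other than *Des*, *Myf5* and *Cdh15* reached at most 9.03 CPM. The summed level of the 15 mature muscle fibre genes was 308 to 441 CPM in vehicle tumors, 2120 to 13800 after VCR (highest in m5), 401 to 20500 after RCM1-NPFA (highest in m9) and 793 to 5359 after the combination. The 8 endothelial genes summed to 143 to 201 CPM in vehicle tumors and to between 205 and 282 CPM in all 9 treated tumors. The leukocyte list spanned 1552 to 2166 CPM in vehicle tumors and 1615 to 2395 in treated ones, the adipocyte list 6.62 to 130 and 19.3 to 94.0 CPM, and the keratinocyte list lay under 7 CPM throughout. Defining keratinocyte genes *Krt1* and *Krtdap* had 3 or fewer counts in every group.

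Levels of different genes were compared per transcript length, in TPM (scaled for length and library size by the authors, and summed over the transcripts of a gene). *Birc5*, an inhibitor of cell death that also serves the chromosomal passenger complex, had the highest level at 188.5 ± 21.3 TPM (SD, n = 12 tumors), above *Ccnb2* in 12 of 12 tumors. *Ccnb2* followed at 118 ± 10.7 TPM, above *Plk1* (96.1 ± 9.53 TPM) in 12 of 12. *Aurkb* (87.7 ± 6.21), *Ccnb1* (81.0 ± 7.58), *Cdc25b* (67.9 ± 3.67), *Cdk1* (65.5 ± 6.44) and *Foxm1* (60.9 ± 5.69 TPM) came next. At each step from *Plk1* to *Foxm1* the next gene was the higher one in 1 or 2 of the 12 tumors, so none of these neighbors was separated in every tumor. *Aurka* averaged 50.9 ± 6.90 TPM and *Cenpf* 14.4 ± 1.89 TPM, the lowest in every tumor. *Foxm1* thus ranked eighth of the 10, yet above 93.2% of all 38894 genes quantified, which include genes without reads and genes too low to be tested. The same order was obtained from CPM divided by effective length. The levels varied little over the tumors, and on the TPM scale the highest tumor exceeded the lowest by between 1.23-fold (*Cdc25b*) and 1.67-fold (*Aurka*).

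Within genes, tumors were compared in CPM scaled by TMM. *Foxm1* (chr6:128362994-128375886) was at 139, 168 and 143 CPM in vehicle tumors m1, m2 and m3, at 167, 172 and 168 CPM in VCR tumors m4, m5 and m6, at 148, 179 and 167 CPM in RCM1-NPFA tumors m7, m8 and m9, and at 172, 171 and 151 CPM in combination tumors m10, m11 and m12. Vehicle tumors m1 and m3 were the lowest of the 12, m2 lay among the treated tumors, and all groups overlapped with vehicle. The log2 fold change against vehicle was 0.14 after RCM1-NPFA (standard error 0.09, 95% interval -0.07 to 0.34, edgeR adjusted p = 0.682). After VCR it was 0.17 (standard error 0.09, interval -0.03 to 0.38, adjusted p = 0.304), and after the combination 0.13 (interval -0.07 to 0.34, adjusted p = 0.767). In the averaged RCM1 effect, which sets all 6 tumors given RCM1-NPFA against the 6 not given it within the VCR strata, the fold was 1.04 with a 95% interval of 0.937 to 1.14. *Foxm1* mRNA was therefore not detectably different after RCM1-NPFA. A loss of more than about 6% of the mRNA averaged over both strata lay outside that interval. The study describes RCM1 as acting on the FOXM1 protein, by its export from the nucleus and degradation, which mRNA levels do not measure.

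**Figure D1:**
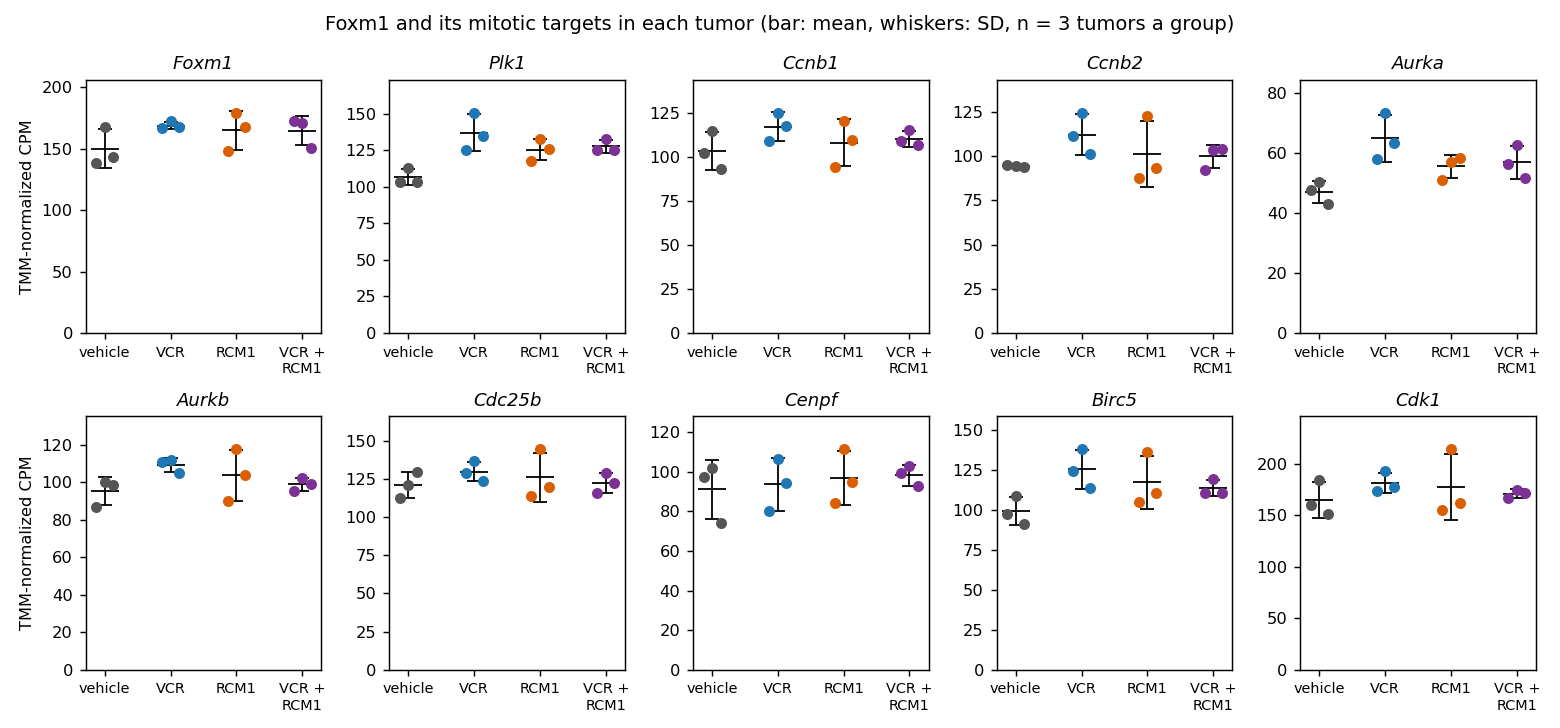
Each panel shows 1 gene, with TMM-normalized CPM on the y axis from 0 and the 4 groups on the x axis. Points are tumors, the long bar is the group mean and the whiskers the SD (n = 3); *Plk1* and *Aurka* have all vehicle tumors below all treated tumors, while the *Foxm1* groups overlap.

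*Plk1* (chr7:122159435-122169884), the kinase that matures centrosomes and helps to activate CDK1, showed the most regular pattern. It was at 104, 113 and 104 CPM in the vehicle tumors, 125, 150.5 and 135 CPM after VCR, 118, 133 and 126 CPM after RCM1-NPFA, and 125, 133 and 125 CPM after the combination. Every one of the 9 treated tumors exceeded all 3 vehicle tumors. After VCR *Plk1* rose by a log2 fold change of 0.36 (standard error 0.08, edgeR adjusted p = 0.0712), a fold of 1.29. After RCM1-NPFA the difference was 0.24 (standard error 0.08, edgeR adjusted p = 0.428, unadjusted p = 0.0122), and after the combination 0.26 (unadjusted p = 0.007, edgeR adjusted p = 0.668). These comparisons share the vehicle tumors and are not independent of each other.

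*Aurka* (chr2:172356190-172370886) encodes Aurora A, which acts at the spindle poles and activates PLK1. Its levels were 47.7, 50.1 and 42.9 CPM in vehicle tumors, 57.9, 73.3 and 63.3 CPM after VCR, 51.1, 56.9 and 58.3 CPM after RCM1-NPFA, and 56.2, 62.6 and 51.7 CPM after the combination. Here too the 3 vehicle tumors were the lowest of the 12, and VCR tumor m5 stood above all others. *Aurka* rose after VCR by 0.47 on the log2 scale (standard error 0.10, edgeR adjusted p = 0.0725), a fold of 1.38. RCM1-NPFA gave a difference of 0.24 (standard error 0.10, edgeR adjusted p = 0.484, unadjusted p = 0.0392), and the combination gave 0.28 (unadjusted p = 0.0209, edgeR adjusted p = 0.67). *Aurkb* (chr11:69045624-69051664), the Aurora kinase of the chromosomal passenger complex, was at 86.6, 100.4 and 98.8 CPM in vehicle tumors and at 111, 112 and 105 CPM after VCR. The VCR tumors lay above the vehicle tumors, with a log2 fold change of 0.20 (standard error 0.09) that did not pass the test (edgeR adjusted p = 0.234). After RCM1-NPFA *Aurkb* ranged from 90.3 to 118 CPM and after the combination from 95.5 to 102 CPM, both overlapping with vehicle.

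CDK1 with its B-type cyclins and the phosphatase that activates it drives entry into mitosis. *Cdk1* (chr10:69335146-69352912) was at 159.7, 184 and 151 CPM in vehicle tumors, 174, 193 and 177 CPM after VCR, 156, 214 and 162 CPM after RCM1-NPFA, and 167, 175 and 171 CPM after the combination. The highest tumor was m8 of the RCM1-NPFA group, whose other 2 tumors lay within the vehicle range. *Ccnb1* (chr13:100778739-100786486) was at 102, 115 and 93.4 CPM in vehicle tumors, 109, 125 and 118 CPM after VCR, 94.4, 120.4 and 109.8 CPM after RCM1-NPFA, and 109, 115 and 107 CPM after the combination. All of its groups overlapped. *Ccnb2* (chr9:70407689-70421554) was very even in vehicle tumors, at 95.1, 94.6 and 93.7 CPM, and was at 111, 125 and 101 CPM after VCR, all above vehicle. After RCM1-NPFA it spread from 87.9 to 123 CPM, on both sides of the vehicle tumors. *Cdc25b* (chr2:131186436-131198511) ranged from 113 to 129.8 CPM in vehicle tumors and from 114 to 144 CPM in the treated ones. None of these genes passed the test in any comparison. The log2 fold changes after VCR were 0.14 (standard error 0.12) for *Cdk1*, 0.18 (0.10) for *Ccnb1*, 0.25 (0.12) for *Ccnb2* and 0.10 (0.09) for *Cdc25b*, and those after RCM1-NPFA were between 0.06 and 0.10.

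*Birc5* (chr11:117849237-117855743) was at 97.4, 109 and 91.4 CPM in vehicle tumors, 125, 138 and 114 CPM after VCR, 105, 136 and 111 CPM after RCM1-NPFA, and 111, 119 and 110.4 CPM after the combination. The VCR and combination tumors lay above all vehicle tumors, and RCM1-NPFA tumor m7 lay among the vehicle tumors. With VCR the log2 fold change came to 0.34 (standard error 0.11), which edgeR did not call (adjusted p = 0.114) and DESeq2 did (adjusted p = 0.0516). It was 0.24 after RCM1-NPFA (unadjusted p = 0.0451, edgeR adjusted p = 0.495). *Cenpf* (chr1:189640606-189688107), whose large protein joins kinetochores to microtubules, was at 97.3, 102 and 74.2 CPM in vehicle tumors and at 80.0, 107 and 94.3 CPM after VCR. Its groups overlapped throughout, its log2 fold change after VCR was 0.04 (standard error 0.14), and on the TPM scale its mean was lower after VCR (13.8 against 14.1 TPM).

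Between RCM1-NPFA and vehicle tumors, 0 of the 10 genes passed the threshold of an adjusted p under 0.1 with edgeR, and neither did any other gene (0%). At an unadjusted p under 0.05 there were 3 members, *Plk1*, *Aurka* and *Birc5*, all higher after the inhibitor, where 9.78% of all genes met that level and 5.34% met it and were higher. DESeq2 called 278 genes (1.52% of those it tested) and 0 of the members, and limma-voom called 0 genes. All 10 fitted changes were above 0, with a median log2 fold change of 0.11 beside 0.00 for all 17599 genes tested, of which 50.7% were above 0. In 2 members (*Plk1* and *Aurka*) the RCM1-NPFA tumors lay wholly above the vehicle tumors, as was the case for 5.56% of all genes, and in 0 members wholly below (5.86% of all genes). Exact permutation tests, two-sided, on log2 CPM gave p = 0.1 for both, the smallest that 3 against 3 tumors allow. The lowest end of any 95% interval was a fold of 0.859 (*Cenpf*). A decrease of more than about 14% in any of the 10 mRNAs was thus outside the fitted intervals, each of which covers its own gene only. RCM1-NPFA tumor m8 was the highest of the 12 for 5 members, and without it the fitted changes of *Ccnb1*, *Ccnb2*, *Cdc25b*, *Cenpf* and *Cdk1* turned negative, between -0.06 and -0.02. The endothelial list was also higher in all 3 RCM1-NPFA tumors than in any vehicle tumor (values above), and its part in the pattern of *Plk1* and *Aurka* was not tested.

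Between VCR and vehicle tumors, 2 of the 10 genes, *Plk1* and *Aurka*, passed the threshold and both rose, where 5.54% of all genes were called, 2.79% higher and 2.75% lower. An unadjusted p under 0.05 was found for 3 members, all higher, and for 22.1% of all genes (11.7% higher). All 10 fitted changes were above 0 (median 0.19, beside 0.00 for all genes, 50.3% of which were above 0). In 5 members (*Plk1*, *Aurka*, *Birc5*, *Ccnb2* and *Aurkb*) the groups did not overlap and VCR was higher, which held for 13.5% of all genes, and the two-sided exact permutation p of each was 0.1. DESeq2 called *Birc5* as well, 3 members in all, among 2214 genes (14.3% of those it tested, 7.21% higher). With limma-voom, *Plk1* and *Aurka* were called among 3.86% of all genes. The calls rested on single tumors and on settings. Without m1, m2, m4, m5 or m11, or with only the VCR and vehicle tumors in the fit, 0 members passed. Without m5, the VCR tumor highest for *Plk1*, *Aurka*, *Birc5*, *Ccnb1* and *Ccnb2*, the log2 fold changes were 0.29 for *Plk1* and 0.37 for *Aurka* with an edgeR adjusted p of 0.3 for both. The myogenic, muscle fibre and endothelial lists were also higher in all 3 VCR tumors than in any vehicle tumor (values above), with m5 the highest of the VCR group in each. Their part in the result was not tested.

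**Figure D2:**
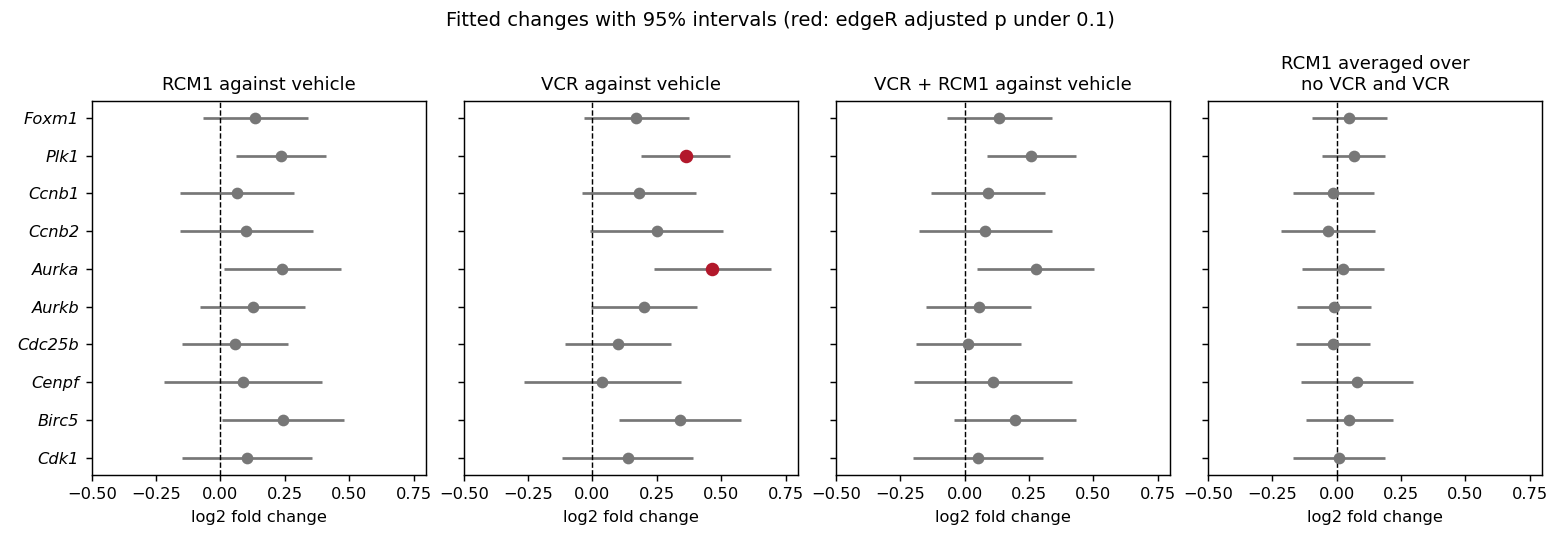
Points are log2 fold changes of the 10 genes (rows) from the edgeR fit and lines their 95% intervals, in 4 comparisons, with the dashed line at 0. Red marks an adjusted p under 0.1, reached by *Plk1* and *Aurka* after VCR; in the averaged RCM1 effect every interval spans 0.

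Between VCR + RCM1-NPFA and vehicle tumors, 0 of the 10 genes passed the edgeR test (0% of all genes), 2 had an unadjusted p under 0.05 (*Plk1* and *Aurka*, both higher), a level that 7.3% of all genes met, with 3.81% on the higher side. DESeq2 called 0 members and 0.362% of the genes it tested, and limma-voom 0. The fitted changes of all 10 were above 0, with a median of 0.10, and ran from 0.02 (*Cdc25b*) to 0.28 (*Aurka*). Over all genes the median was 0.00, and 50.4% were above 0. *Plk1*, *Aurka* and *Birc5* were higher in all combination tumors than in any vehicle tumor, as were 7.1% of all genes. The muscle fibre (793 to 5359 against 308 to 441 CPM) and endothelial lists (206 to 220.2 against 143 to 201 CPM) were also higher in all 3 combination tumors. So was the myogenic list, narrowly (274.0 to 440.2 against 194.9 to 273.7 CPM). The part of these lists in the result was not tested. Adding RCM1-NPFA to VCR was tested by comparing the combination with VCR. The members called numbered 0 (0% of all genes), with 0 at an unadjusted p under 0.05 (5.26% of all genes) and 0 by DESeq2 or limma-voom. Fitted changes were below 0 in 9 members and ran from -0.19 (*Aurka*, standard error 0.10) to 0.07 (*Cenpf*). Of all genes, 49.1% were above 0 in this comparison. *Aurkb* was lower in every combination tumor than in any VCR tumor, as 6.88% of all genes were, with a log2 fold change of -0.14 (edgeR adjusted p = 0.855). The combination and RCM1-NPFA alone differed by -0.07 to 0.04, with 0 members called by edgeR (0% of all genes), DESeq2 or limma-voom and 0 at an unadjusted p under 0.05 (2.07%).

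Whether the effect of RCM1-NPFA depended on VCR was tested by the interaction of the drugs. All 10 interaction terms were below 0, with a median of -0.23 beside -0.01 for all genes, of which 48.7% were above 0. A term below 0 means that the combination lay below the sum of the single effects. These terms use the same 3 vehicle tumors, which were the lowest of the 12 for *Plk1* and *Aurka*. The 10 genes also varied together over the tumors, so the signs are not independent of each other, here or in the comparisons above. The interaction terms were -0.43 for *Aurka* (95% interval -0.75 to -0.11), -0.39 for *Birc5* (-0.72 to -0.05) and -0.34 for *Plk1* (-0.58 to -0.09). The unadjusted p-values were 0.0126, 0.0273 and 0.0111, the 3 members under 0.05, a level that 13.8% of all genes met and 7.27% met below 0. The edgeR adjusted p-values were 0.293, 0.314 and 0.293, so that 0 of 10 members were called, as were 0% of all genes, and limma-voom called 0. DESeq2 called 473 genes (2.85%), 0 of them members. Averaged over tumors without and with VCR, the effect of RCM1-NPFA was the most precisely estimated. It ran from -0.03 (*Ccnb2*) to 0.08 (*Cenpf*) on the log2 scale, 6 members above 0 and 4 below, with 0 called by edgeR (0% of all genes), DESeq2 or limma-voom and 0 at an unadjusted p under 0.05 (2.49%). In two-sided exact permutation tests with labels exchanged within the VCR strata (400 arrangements, smallest possible p 0.005), p ran from 0.395 to 0.935. The lowest end of any interval was a fold of 0.860 (*Ccnb2*).

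**Figure D3:**
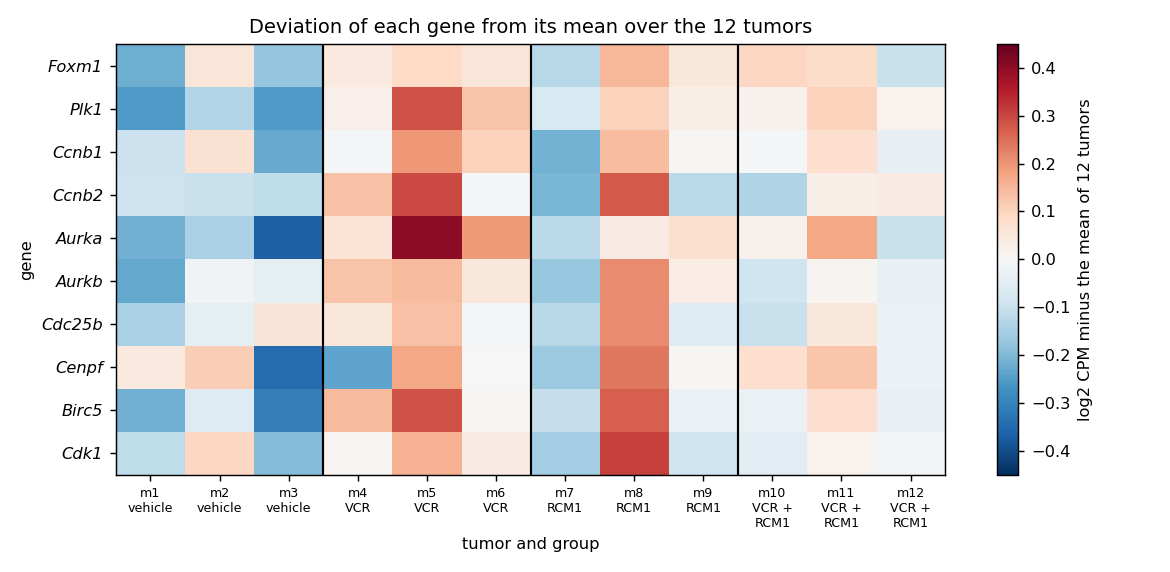
Rows are the 10 genes, columns the 12 tumors by group, and color the log2 CPM of a gene minus its mean over the 12 tumors. Tumors m1 and m3 (vehicle) and m7 (RCM1-NPFA) are mostly blue, and m5 (VCR) and m8 (RCM1-NPFA) red for all 10 genes.

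The map of deviations from the mean shows that the genes moved largely by tumor. The lowest value was in vehicle tumor m3 for 6 members, in vehicle tumor m1 for 3 and in RCM1-NPFA tumor m7 for 1. The highest value was in m5 for 5 members and in m8 for 5. Added together, the 10 genes reached 1022, 1041 and 1157 CPM in m3, m1 and m2, 1189 to 1332 CPM after VCR, 1048 to 1335 CPM after RCM1-NPFA and 1134 to 1213 CPM after the combination. The VCR sums lay above the vehicle sums in CPM, but on the TPM scale the ranges met, with 679.5 to 850.0 TPM in vehicle tumors and 842 to 899.5 TPM after VCR. Across the 12 tumors the 45 pairs of members had Pearson correlations of log2 CPM from 0.25 (*Cdc25b* and *Cenpf*) to 0.95 (*Plk1* and *Aurka*), with a median of 0.73. These tumors share a library method and the correlations also carry differences between groups.

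Each target was then set against *Foxm1*, in 9 relations over the 12 tumors with 100000 permutations of each. Pearson's r was highest for *Ccnb1* at 0.84 (permutation p = 0.00077, adjusted over the 9 relations 0.0049), with Spearman's rho of 0.80 (permutation p = 0.00286, adjusted 0.0115). *Birc5* had r = 0.81 and rho = 0.77 (permutation p = 0.00109 and 0.00509). *Plk1*, *Aurkb*, *Cdk1* and *Aurka* had r between 0.74 and 0.77 and rho between 0.59 and 0.78. The r was lower for *Cenpf* (0.60, rho 0.78), *Cdc25b* (0.53, rho 0.43) and *Ccnb2* (0.53, rho 0.34). With the adjusted permutation p under 0.05, 7 of 9 relations passed for r and 5 of 9 for rho, and *Cdc25b* and *Ccnb2* passed in neither. When m1 and m3, the tumors farthest from the median of *Foxm1*, were left out, r was 0.82 for *Ccnb1* (adjusted permutation p = 0.0196) and 0.46 to 0.69 for the others, and 1 of 9 relations passed. Of the relations that had passed for r, those of *Ccnb1*, *Plk1*, *Aurka*, *Aurkb*, *Birc5* and *Cdk1* had a lower r without these tumors. That of *Cenpf* had a higher one (0.67). On deviations from group means r was 0.82 for *Ccnb1*, 0.72 for *Birc5* and *Cdk1*, and 0.39 to 0.71 for the others. The labels give no sequencing batch within which the relations could be repeated. Among the 13075 genes of sufficient count, r with *Foxm1* had a median of -0.01, and 4.47% were over 0.7, as were 6 of the 9 targets. The genes most like *Foxm1* in pattern over the 12 tumors, members left aside, were *Uchl5* (r = 0.96), *Snrpa1* (0.96), *Ppil1* (0.95), *Mms22l* (0.94) and *Psma6* (0.94).

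**Figure D4:**
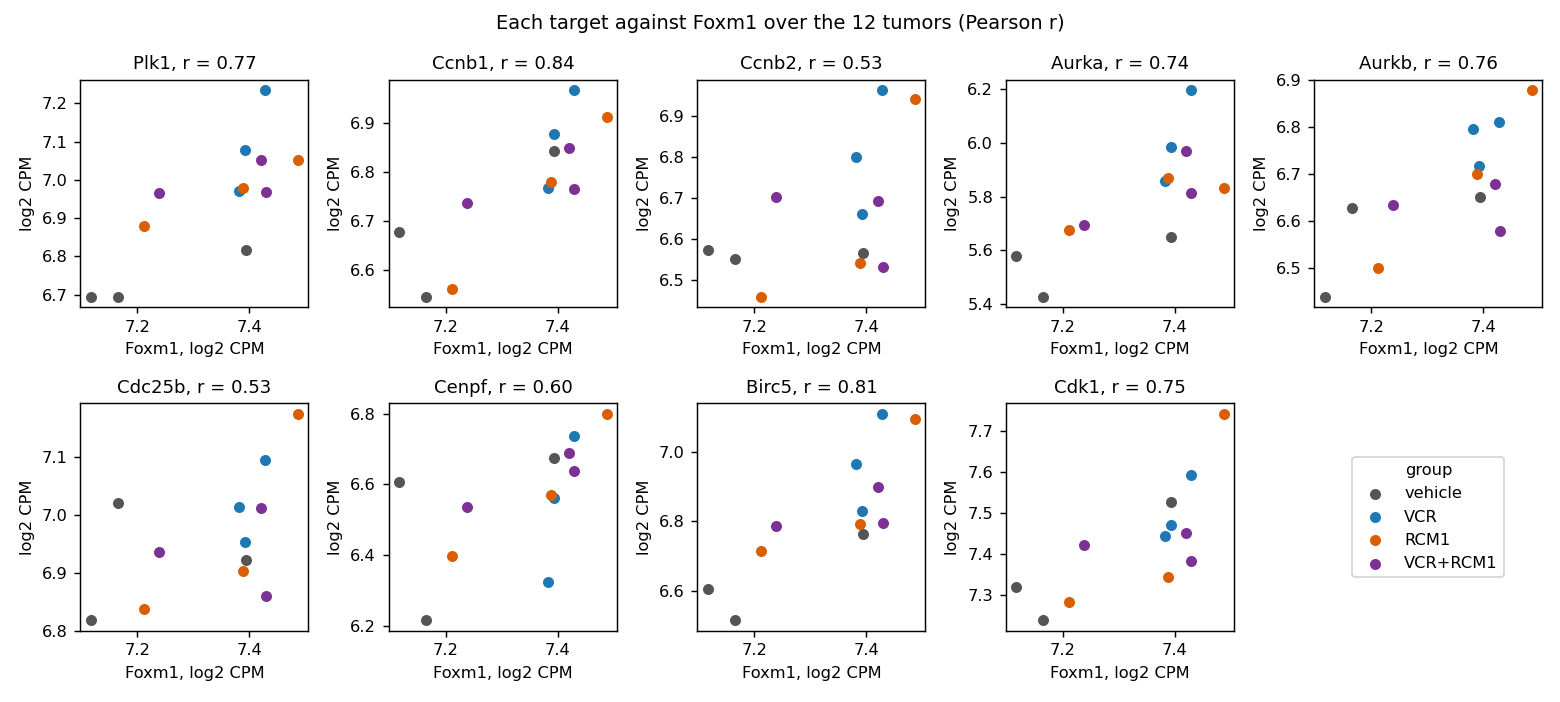
Each panel sets the log2 CPM of a target (y axis) against that of *Foxm1* (x axis) in the 12 tumors, colored by group, with Pearson's r in the title. Vehicle tumors m1 and m3 lie at the left of every panel, and r runs from 0.53 for *Ccnb2* and *Cdc25b* to 0.84 for *Ccnb1*.

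For 5 of the genes, *Foxm1* among them, RefSeq reads were assigned to 1 transcript only, so isoforms could not be compared. The remaining genes had 2 or 3 transcripts, over which kallisto divides shared reads by estimate, and no test was made. In *Birc5* the short transcript of 977 bases carried 92.3% to 94.7% of the gene's TPM in every tumor. *Aurka* and *Aurkb* each had a dominant transcript with 78.6% to 86.7% and 82.0% to 89.9%. In *Cdc25b* the level was divided between transcripts of 3028 and 3106 bases. The first held a mean of 46.9% in vehicle tumors, 53.2% after VCR, 54.6% after RCM1-NPFA and 51.5% after the combination, and by tumor it ranged from 45.1% to 48.4% in vehicle tumors, from 51.4% to 55.0% after VCR, from 47.2% (m8) to 60.7% after RCM1-NPFA and from 49.7% to 54.2% after the combination. The RCM1-NPFA tumors overlapped with vehicle, and those of the other groups did not. How often transcript shares separate in this way over all genes was not counted. The main *Aurkb* transcript also separated vehicle (87.1% to 89.9%) from VCR tumors (86.0% to 87.0%). That of *Aurka* did so narrowly, at 81.3% to 84.324% in vehicle and 84.345% to 86.7% in VCR tumors. In *Cenpf* the transcript of 10370 bases held 60.3% to 86.1%, with the highest share in vehicle tumor m1.

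Other genes of the pathway were counted from 4 lists, all of whose members were tested. Of 22 partners and upstream regulators of FOXM1, 1 was called, in the comparison of VCR with vehicle, in which 5.54% of all genes were called, a share that 1 of 22 does not exceed. It was *Rbl2*, the pocket protein p130 that represses cell cycle genes in resting cells, which fell after VCR by 0.28 on the log2 scale (mean 73.7 CPM in vehicle and 60.8 CPM in VCR tumors, edgeR adjusted p = 0.0911). *Mybl2*, which brings FOXM1 to the MuvB complex, had a mean of 61.6 CPM in vehicle, 71.5 after VCR, 69.8 after RCM1-NPFA and 67.8 CPM after the combination and was not called. *Lin9* and *Lin37*, subunits of MuvB, were not called either, with log2 fold changes of 0.09 and 0.25 after VCR. Among 33 other G2 and M phase targets of FOXM1 and MuvB, 3 rose after VCR, 0 fell and 30 were not called, where 2.79% of all genes rose and 2.75% fell. The fitted changes after VCR went both ways, with 20 of the 33 above 0 and 13 below (median log2 fold change 0.07, beside 0.00 for all genes, 50.3% of which were above 0). Those called were *Cenpa*, the histone of centromeres (0.35, standard error 0.08, edgeR adjusted p = 0.0759), *Gtse1*, a spindle and p53-binding protein (0.33, 0.08, adjusted p = 0.0852), and *Cdc20*, the activator of the anaphase-promoting complex (0.29, 0.08, adjusted p = 0.0872). *Ccna2* and *Cdc25c* were not called, with 0.07 and 0.24 after VCR. These 3 calls were lost without m2, m4, m5, m11 or m12 (edgeR adjusted p between 0.312 and 0.332 without m5), as was that of *Rbl2* (adjusted p = 0.34 without m5), and *Rbl2*, *Cdc20* and *Gtse1* were lost without m1 or m10 as well, *Cdc20* and *Gtse1* without m3, and *Rbl2* without m7. All 4 were also lost with only the VCR and vehicle tumors in the fit (edgeR adjusted p between 0.142 and 0.188). With tumors left out the log2 fold changes kept their sign, at 0.27 to 0.40 for *Cenpa*, 0.24 to 0.37 for *Gtse1*, 0.20 to 0.32 for *Cdc20* and -0.38 to -0.23 for *Rbl2*.

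After RCM1-NPFA alone, 23 of these 33 targets were above 0 and 10 below, with a median of 0.08. For all genes the median was 0.00, and 50.7% were above 0. In the averaged RCM1 effect 27 targets were above and 6 below, with a median of 0.04. There the median of all genes was 0.00, with 50.5% above 0. By edgeR 0 of the targets were called in either, as were 0% of all genes. The counts of signs were not tested. Of 6 brakes on CDK1 and mitotic entry, 0 were called in any comparison. *Wee1*, the kinase that holds CDK1 inactive, was at a mean of 29.5 CPM in vehicle, 29.8 after VCR and 29.5 CPM in the other groups, and *Pkmyt1*, which acts with it, at 74.4 CPM in vehicle and 98.0 CPM after VCR (log2 fold change 0.40, edgeR adjusted p = 0.127). *Gadd45a* had log2 fold changes of 0.00 after VCR and -0.08 after RCM1-NPFA. Of 7 other forkhead factors, 1 was called (after VCR, where 5.54% of all genes were): *Foxo3*, a factor that opposes proliferation, fell by 0.36 on the log2 scale (94.8 to 73.7 CPM, edgeR adjusted p = 0.0748). This call, too, was lost without m2, m4, m5, m11 or m12, and without m5 *Foxo3* had a log2 fold change of -0.39 and an edgeR adjusted p of 0.281. *Foxo1* and *Foxo4* were not called, with 0.05 and 0.00 after VCR.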

How the data were processed

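Poly-A RNA of 12 tumors was sequenced. The authors assigned reads to transcripts of GRCm38 with kallisto (versions are not given in the sources used here) and deposited, per transcript, an estimated count, not normalized and not whole, and a TPM value. The sources name a stranded kit and call the libraries non-stranded, so reads of a gene and of an overlapping antisense gene may be mixed. Of 120299 transcripts 120289 matched RefSeq genes of GRCm38, and 10 with 52751 counts in all were not used. Estimated counts were summed per gene and rounded.

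Genes passing edgeR's filterByExpr (minimum count 10; 17599 genes) were TMM-normalized. Groups were compared in R 4.3.3 by edgeR 4.0.16, using its quasi-likelihood F test with all 12 tumors fitted together, with Benjamini-Hochberg adjustment and a threshold of 0.1. The study used the DESeq2 Wald test, which was run as an alternative (DESeq2 1.42.0), beside limma-voom (limma 3.58.1). Other alternatives were DESeq2's size factors, other filters, fits restricted to the groups compared, transcript-length offsets, a threshold of 0.05 and leaving out tumors. Intervals of 95% come from the edgeR fit. Exact permutation tests used log2(CPM + 0.1). Correlations and their permutations were computed with numpy 2.4.6, with ranks from scipy 1.17.1, and figures were drawn with matplotlib 3.10.9. Promoters came from a RefSeq table of GRCm38.p6.

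The members and lists were chosen with earlier results of these data known. All 10 members were named. From each list the first 3 genes and any called were named, and the 5 genes with the highest r with *Foxm1* among those with a mean of 50 or more counts. Tumors carry separate numbers (m1 to m12), and nothing else says whether the spread between them includes technical repeats. Differences between tumors of a group exceeded counting noise in all 12 pairs (chi-squared per degree of freedom 14.5 or more), so none was counted as a repeat of another. The scripts were tested on simulated data.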

Additional observations from a re-analysis of the deposited data

How the results depend on the processing

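No paired analysis was possible because the groups have no numbers or animals in common. The number of members called was 0 in every comparison other than VCR with vehicle, under each alternative run. For VCR with vehicle it was 2, and 0 with only the groups compared in the edgeR fit, 0 at a threshold of 0.05, 0 without m5 and m9 together (the tumors with most muscle fibre RNA), and 0 to 3 with each tumor left out. Over those fits *Plk1* lay between 0.28 and 0.42 (adjusted p 0.0461 to 0.3) and *Aurka* between 0.36 and 0.54 (0.0467 to 0.3). The number of all genes called there was 975, and 465 with only the groups compared, 648 without a filter, 2214 with DESeq2 on all tumors, 9 at 0.05 and between 0 (m2, m4 and m5, each alone) and 1998 (m6) with a tumor left out. The cause was not tested.

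Signs were followed over the alternatives for all members in the comparisons with vehicle and in the averaged RCM1 effect. For the combination with VCR only *Foxm1*, *Plk1*, *Aurka* and *Birc5* were followed, and for the interaction *Plk1*, *Aurka* and *Birc5*. The combination with RCM1-NPFA alone was not followed. Among the changes followed, those that changed sign did so only with tumors left out. After RCM1-NPFA the ranges over single tumors were -0.0196 to 0.154 for *Ccnb1*, -0.0615 to 0.192 for *Ccnb2*, -0.0524 to 0.122 for *Cdc25b*, -0.0412 to 0.178 for *Cenpf* and -0.0539 to 0.189 for *Cdk1*. After VCR that of *Cenpf* was -0.0893 to 0.141. For the combination with vehicle they were -0.0085 to 0.086 for *Aurkb*, -0.0399 to 0.067 for *Cdc25b*, -0.0179 to 0.187 for *Cenpf* and -0.008 to 0.129 for *Cdk1*, and for the combination with VCR -0.0607 to 0.0236 for *Foxm1*. For the averaged RCM1 effect they were -0.0543 to 0.0324 (*Ccnb1*), -0.115 to 0.0115 (*Ccnb2*), -0.016 to 0.0739 (*Aurka*), -0.0586 to 0.0362 (*Aurkb*), -0.0683 to 0.0191 (*Cdc25b*), -0.0109 to 0.0872 (*Birc5*) and -0.0693 to 0.0529 (*Cdk1*). Without m5 and m9 together, *Cenpf* after VCR was at -0.0688, and the averaged effect was 0.0066 for *Ccnb1*, 0.0342 for *Ccnb2* and 0.0229 for *Cdc25b*. *Foxm1* relations that passed numbered 7, and 8 on log2 TPM and 6 to 8 with a tumor left out. With 3 tumors a group, the standard errors of 0.08 to 0.14 set the size of difference that could be detected.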
